A study of Mus musculus with 9 samples.

Results

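Chaperones are proteins that bind unfolded or partly folded polypeptides and help them to fold, to assemble or to be held soluble. The transcripts described here are those of 10 chaperone genes in 66cl4, a mouse mammary carcinoma line that the labels call triple negative. The genes were Hsp90aa1, Hsp90ab1, Hspa8, Hspa1a, Hspb1, Hspb7, Hspb8, Hspd1, Hspe1 and Hsph1, taken by symbol from a table of 52208 genes. The set was put together because of the shifts of Hsp90ab1 and Hspb7 in these same libraries, so the values of those 2 genes are given as a description, with no test. The values of the other 8 genes were not the stated reason for the choice. The set was nevertheless listed with earlier results of these data known. Messenger RNA was sequenced in 9 libraries, 3 biological replicates in each of 3 groups. Add-back cells carried a short hairpin against Eya3, a transcriptional coactivator and phosphatase, together with IKK2-SE, an always-active form of the IkB kinase that turns on NF-kB. Knockdown cells carried the Eya3 hairpin and an empty vector. Scramble cells carried a control hairpin and the empty vector. Cells of all 3 groups were kept in puromycin after hairpin transduction, and cells of all 3 were picked by mCherry from the second vector. The 6 libraries with the Eya3 hairpin are labelled KD2 in the sample titles and KD3 in the table's column names, so which hairpin they carry is uncertain, and both groups rest on 1 hairpin. Whether the replicates were transduced separately is not said in the labels, and p-values measure only how these samples vary, which may be technical.

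HSP90 proteins act late in folding and keep kinases and steroid receptors in a form that can be activated, the IkB kinase among them. HSP70 proteins bind short hydrophobic stretches in a cycle driven by ATP, with J proteins that deliver the substrate and exchange factors that reset the cycle. The chaperonin HSP60 and its lid HSP10 form a closed chamber in mitochondria, and small heat shock proteins hold unfolded proteins without using ATP. Heat shock factor 1 raises many of these genes together when unfolded protein accumulates, through repeated heat shock elements near their start sites.

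Library totals ran from 63601403 to 81534534 counts, and 16766 genes had enough counts to be tested. Levels are library-scaled counts (CPM, after TMM), and differences are on the log2 scale with the standard error (SE) of edgeR's quasi-likelihood fit. A gene was called at an adjusted p under 0.05 over all genes tested. Eya3 had 29.0, 26.1 and 24.7 CPM in add-back libraries, 25.3, 25.3 and 24.3 CPM in the knockdown libraries and 63.0, 64.1 and 60.9 CPM in the scramble libraries, so every library with the hairpin lay below every scramble library. Ikbkb, the gene of IKK2, averaged 48.6, 44.3 and 47.8 CPM in add-back, knockdown and scramble cells. Its add-back libraries lay above the knockdown libraries, but the difference of 0.13 ± 0.05 did not pass (edgeR adjusted p = 0.0809). Whether reads of the IKK2-SE construct are counted under Ikbkb was not tested. Of 6 mammary epithelial markers, 2 passed 1 CPM in any library, Krt8 and Krt7. Krt8, a keratin of simple epithelia, averaged 1073, 1329 and 628 CPM in add-back, knockdown and scramble cells and was higher by 1.08 ± 0.05 in knockdown than in scramble cells (edgeR adjusted p = 8.08e-12). Epcam, Cdh1, Krt18 and Krt19 averaged under 1 CPM in each group. The part of the Krt8 shift in the values below was not tested. Of the 3 receptor genes that define the triple-negative class, Pgr was at 0 in all libraries, while Esr1 averaged 20.1, 16.5 and 11.8 CPM and Erbb2 63.8, 63.5 and 55.4 CPM in add-back, knockdown and scramble cells. The 3 comparisons share groups, so their values are given side by side and not as support for one another.

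Of the 10 genes, 8 had enough counts for the fit, and the 6 of these that had not chosen the set were tested. Between knockdown and scramble cells, Hsp90aa1 and Hspa8 were higher and Hspb8 and Hsph1 were lower, while Hspd1 and Hspe1 did not pass. That is 4 of 6, where 57.5% of all tested genes were called, 27.7% higher and 29.9% lower. Between add-back and knockdown cells Hspb8 alone passed, lower in add-back cells, where 10.4% of all tested genes were called, 5.61% higher and 4.82% lower. Between add-back and scramble cells the same 4 genes passed in the same directions as in the knockdown cells, where 55.8% of all tested genes were called, 27% higher and 28.7% lower. The share of these members called is near the share over the table in all 3 comparisons. Their median absolute log2 difference was 0.26 between knockdown and scramble cells, against 0.32 over all tested genes. It was 0.01 between add-back and knockdown cells, against 0.10 over all tested genes. Genes were not matched for level in these medians, and the part of counting noise in them was not tested.

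**Figure D1:**
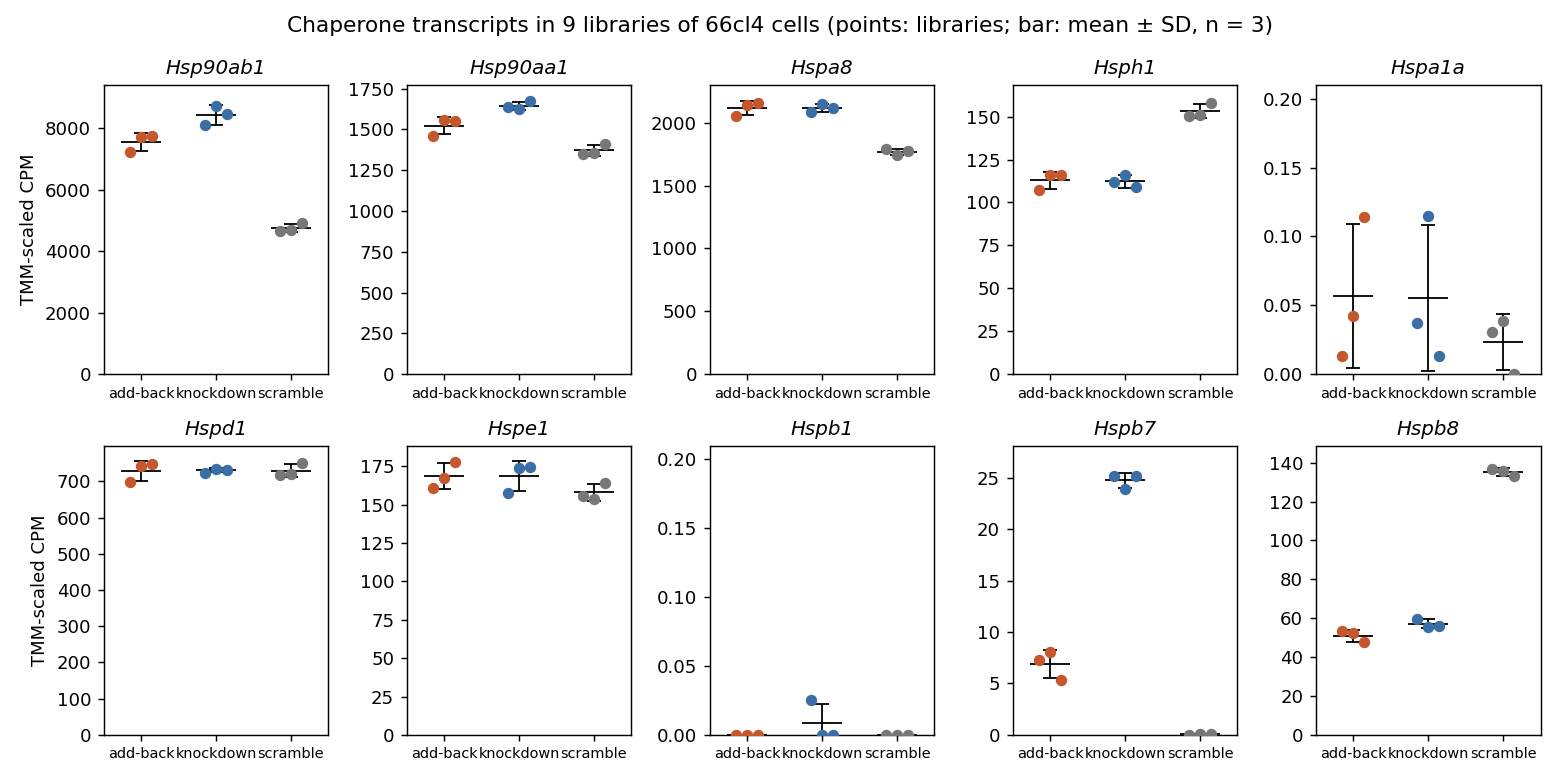
Level of each of the 10 transcripts in TMM-scaled CPM (vertical axis from 0, own scale in each panel) in add-back, knockdown and scramble cells, with points for libraries and bars for mean ± SD, n = 3. Hsp90ab1 and Hspb7 are higher and Hspb8 and Hsph1 lower in both groups with the Eya3 hairpin than in scramble cells, while Hspd1 sits near 730 CPM throughout.

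Levels per kilobase of annotated exon put the genes on one scale. In knockdown cells the order was Hsp90ab1 (2815 CPM per kilobase), Hspa8 (493), Hsp90aa1 (418), Hspd1 (276), Hspe1 (114), Hspb8 (29.3), Hsph1 (15.5) and Hspb7 (8.95). The order was the same in add-back cells, from 2520 for Hsp90ab1 to 2.49 for Hspb7, and in scramble cells, from 1587 to 0.02. Each step of that order was wider than the SDs of the neighbours, which in knockdown cells were 7.24 for Hspa8 and 5.88 for Hsp90aa1. Together the 10 genes took 1.18%, 1.24% and 1.27% of all counts in the add-back libraries, 1.27%, 1.34% and 1.31% in the knockdown libraries and 0.91%, 0.91% and 0.95% in the scramble libraries. Hsp90ab1 alone took a mean of 0.76%, 0.83% and 0.48% in add-back, knockdown and scramble libraries. Most of the difference in the sum is thus that of Hsp90ab1, which helped to choose the set.

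Hsp90ab1 encodes HSP90 beta, the constitutive cytosolic HSP90, and lies at chr17:45567775-45573271 on the minus strand (GRCm38/mm10). It had 7216, 7707 and 7750 CPM in add-back libraries, 8109, 8742 and 8476 CPM in the knockdown libraries and 4662, 4706 and 4910 CPM in the scramble libraries. The 3 groups did not overlap, with the knockdown libraries highest and the add-back libraries between them and scramble. Its log2 difference was 0.83 ± 0.04 for knockdown against scramble, -0.16 ± 0.04 for add-back against knockdown and 0.67 ± 0.04 for add-back against scramble (SE). In linear terms, knockdown cells had 1.77 times and add-back cells 1.59 times the scramble level. It was the third most counted gene in each add-back library, the second in each knockdown library and ranked between 6 and 8 in the scramble libraries.

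Hsp90aa1 encodes HSP90 alpha, the form that stress induces most, and lies at chr12:110690605-110702728 on the minus strand. It was at 1460, 1557 and 1553 CPM in add-back cells, 1636, 1627 and 1671 CPM in knockdown cells and 1351, 1353 and 1408 CPM in scramble cells. The groups did not overlap in any of the 3 comparisons. Knockdown cells were higher than scramble cells by 0.26 ± 0.04 (edgeR adjusted p = 1.12e-05), and add-back cells by 0.15 ± 0.04 (edgeR adjusted p = 0.002). The difference of -0.11 ± 0.04 between add-back and knockdown cells did not pass (edgeR adjusted p = 0.0681). Among the alternatives it passed without the filter (0.0275), with DESeq2 (0.0292), limma voom (0.0471) and the replicate block (0.00463), and its adjusted p ran up to 0.249. Its 40 tested neighbours had a median of 0.32 between knockdown and scramble cells, or 0.06 with 10 on either side.

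The transcripts of the alpha and beta forms therefore stood in different proportions in the groups. This ratio is a description with no test, since Hsp90ab1 helped to choose the set. Hsp90ab1 counts were 4.94, 4.95 and 4.99 times those of Hsp90aa1 in the add-back libraries, 4.96, 5.37 and 5.07 times in the knockdown libraries and 3.45, 3.48 and 3.49 times in the scramble libraries. Both groups with the hairpin lay above scramble, and their own ranges overlapped. Per kilobase the mean ratios were 6.50, 6.73 and 4.55 in add-back, knockdown and scramble cells. Of the 50-base stretches of Hsp90aa1 transcripts, 47.5% also occur in transcripts of other genes, chiefly the pseudogene Gm12346, against 3.44% for Hsp90ab1. Gm12346 held under 1% of the summed counts of the pair, and the sum had the same differences, 0.26, -0.11 and 0.15.

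**Figure D2:**
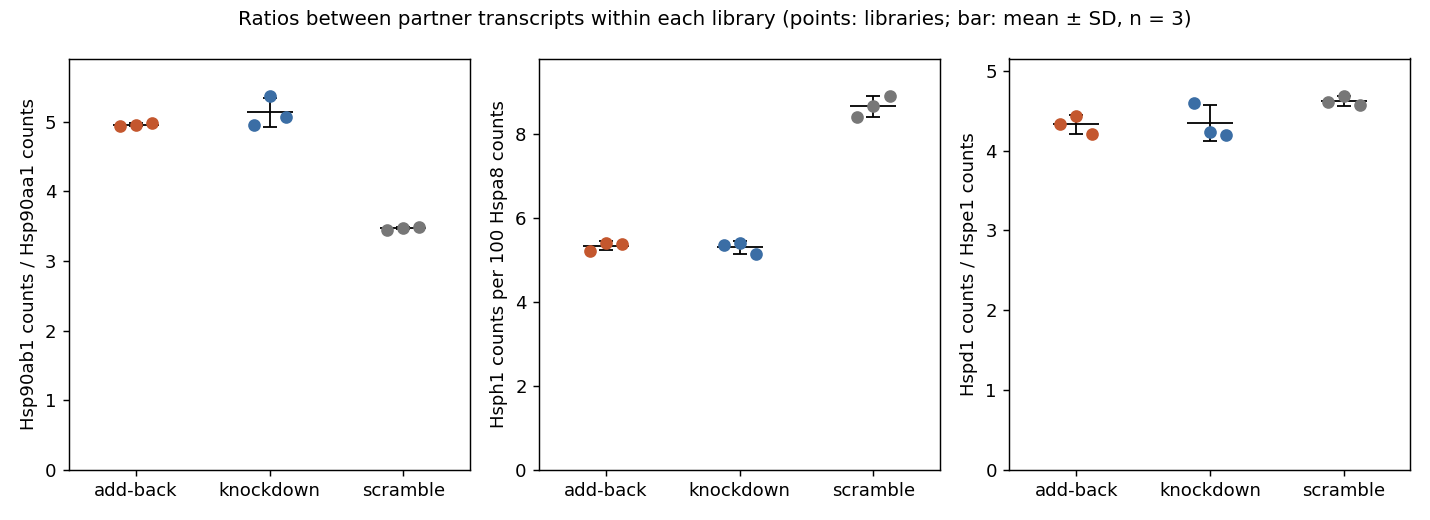
Ratio of counts within each library for 3 pairs of partner transcripts (vertical axes from 0; points are libraries, bars mean ± SD, n = 3; add-back, knockdown, scramble). Hsp90ab1 over Hsp90aa1 is near 5 in both hairpin groups and 3.47 in scramble cells, Hsph1 per 100 Hspa8 is 5.33, 5.29 and 8.65, and Hspd1 over Hspe1 is 4.33, 4.34 and 4.62.

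Hsp90ab1 was set beside its chromosomal neighbours. The 40 nearest tested genes, 20 on either side, had a median log2 difference of 0.18 between knockdown and scramble cells (0.24 with 10 on either side), and 15 of them were called higher and 7 lower. Over the 767 tested genes of chromosome 17 the median was 0.31, the highest of 20 chromosomes, the others running from -0.36 for chromosome 10 to 0.25 for chromosome 3. On chromosome 17, 58.0% of tested genes were called higher in knockdown cells and 11.7% lower. Hsp90ab1 at 0.83 lay above these medians, and the part that the chromosome-wide shift has in its value was not tested. Of the adjacent tested genes, Slc29a1, a nucleoside transporter, differed by 0.52 (edgeR adjusted p = 9.58e-08) and Slc35b2, a Golgi carrier, by -0.27 (edgeR adjusted p = 0.000481). The next gene along, Nfkbie, which encodes an inhibitor of NF-kB, differed by -1.63 for knockdown against scramble (edgeR adjusted p = 7.45e-12) and by 0.54 for add-back against knockdown (edgeR adjusted p = 8.21e-05), both opposite in sign to Hsp90ab1. The chromosome medians were looked at after the values had been seen.

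Among 10899 expressed genes (mean log2 CPM 1 or more), the profiles most like Hsp90ab1 over the 9 libraries were those of Rhoa, Hmga1 and Mta3. Their root mean square differences from it, after centring, were 0.03, 0.04 and 0.04 on the log2 scale. Rhoa, a small GTPase of the cytoskeleton, averaged 584, 626 and 358 CPM in add-back, knockdown and scramble cells. Hmga1 and Mta3, which encode chromatin proteins, lie on chromosome 17 as Hsp90ab1 does.

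The constitutive HSP70, HSC70, is encoded by Hspa8 at chr9:40800984-40810087 on the plus strand. Hspa8 was at 2057, 2141 and 2154 CPM in add-back cells, 2089, 2151 and 2121 CPM in knockdown cells and 1792, 1745 and 1773 CPM in scramble cells. Every library with the Eya3 hairpin lay above every scramble library, and the add-back and knockdown ranges overlapped. Against scramble, Hspa8 was higher by 0.26 ± 0.03 in add-back cells (edgeR adjusted p = 6.17e-06) and by the same 0.26 ± 0.03 in knockdown cells (edgeR adjusted p = 5.19e-06). The add-back minus knockdown difference was 0.00 ± 0.03 (edgeR adjusted p = 0.992). Of its 50-base stretches, 39.4% also occur in other genes. The pseudogene Gm15459 had 27778 to 40030 counts and made up 19.0%, 18.9% and 19.3% of the counts of both in add-back, knockdown and scramble cells. Summed with it, Hspa8 differed by 0.25 between knockdown and scramble cells.

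Hsph1 encodes HSP110, an exchange factor and holding chaperone that works with HSC70, at chr5:149614287-149636376 on the minus strand. Hsph1 was at 107, 116 and 116 CPM in add-back cells, 112, 116 and 109 CPM in knockdown cells and 151, 151 and 158 CPM in scramble cells. All 6 hairpin libraries lay below the scramble libraries. Relative to scramble, Hsph1 was lower by -0.44 ± 0.04 in add-back cells (edgeR adjusted p = 1.43e-07) and by -0.45 ± 0.04 with the hairpin alone (edgeR adjusted p = 9.91e-08). Add-back and knockdown cells differed by 0.01 ± 0.04 (edgeR adjusted p = 0.944). Hspa8 and its partner thus moved in opposite directions, and there were 5.21, 5.41 and 5.38 Hsph1 counts per 100 Hspa8 counts in add-back libraries, 5.35, 5.40 and 5.13 in knockdown libraries and 8.40, 8.66 and 8.90 in scramble libraries. No 50-base stretch of Hsph1 transcripts occurs in another gene.

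Hspa1a encodes a stress-inducible HSP70 at chr17:34969190-34972156 and had almost no counts. It had 1, 3 and 8 counts in the add-back libraries, 3, 9 and 1 in the knockdown libraries and 2, 3 and 0 in the scramble libraries, which is under the filter, and 3 counts in a library correspond to 0.0375 to 0.0464 CPM. Hspa1b, its neighbour with nearly the same protein, had 2174, 2104 and 2288 counts in add-back, 2766, 2779 and 2635 in knockdown and 989, 1310 and 1250 in scramble libraries. Of the 50-base stretches of Hspa1a, 66.3% occur in other genes, chiefly Hspa1b, and 62.3% of those of Hspa1b occur in Hspa1a. The sources used here do not give how reads shared by the pair were assigned, and the division of counts between them is uncertain. Relative to scramble, Hspa1b was higher by 0.90 ± 0.06 in add-back cells (edgeR adjusted p = 1.45e-09) and by 1.11 ± 0.06 with the hairpin alone (edgeR adjusted p = 1e-10). It was lower by -0.20 ± 0.06 in add-back than in knockdown cells (edgeR adjusted p = 0.0285), a call lost in 6 of 17 alternatives (adjusted p 0.00454 to 0.129). These were library totals as the scaling and the removal of any knockdown library or of add-back replicate 1 or 2. Its 40 tested neighbours had a median of 0.37 between knockdown and scramble cells, with 25 called higher and 2 lower. Over the tested genes of chromosome 17, 58.0% were called higher and 11.7% lower in that comparison. The promoter windows of Hspa1a and Hspa1b share 296 of 300 bases.

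Hspd1 and Hspe1 encode HSP60 and HSP10, the chamber and lid of the mitochondrial chaperonin, and lie head to head at chr1:55077835-55088243 (minus strand) and chr1:55088132-55091307 (plus strand). Hspd1 was at 697, 742 and 749 CPM in add-back cells, 724, 735 and 732 CPM in knockdown cells and 717, 721 and 751 CPM in scramble cells. The groups overlapped in all 3 comparisons, and each difference was 0.00 ± 0.04 (edgeR adjusted p = 0.987 or above). Hspe1 was at 161, 167 and 178 CPM in add-back cells, 157, 174 and 175 CPM in knockdown cells and 156, 154 and 164 CPM in scramble cells. Its ranges overlapped too, and its differences from scramble of 0.09 ± 0.05 did not pass in knockdown cells (edgeR adjusted p = 0.109) or add-back cells (edgeR adjusted p = 0.110). They passed with the replicate block (0.0149 in both), without knockdown replicate 1 (0.0150 for knockdown cells) and without add-back replicate 1 (0.0372 for add-back cells). Adjusted p ran from 0.0149 to 0.457 for knockdown cells and up to 0.344 for add-back cells.

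The counts of HSP60 and HSP10 kept a narrow ratio. Hspd1 had 4.34, 4.44 and 4.21 times the counts of Hspe1 in the add-back libraries, 4.60, 4.23 and 4.19 times in the knockdown libraries and 4.60, 4.69 and 4.57 times in the scramble libraries. Per kilobase the mean ratio was 2.42, 2.42 and 2.58. The add-back libraries lay below the scramble libraries, and the knockdown libraries overlapped with both. The annotated genes overlap by 112 bases on opposite strands, and the strand setting of the counting is not given, so whether reads from that stretch could be told apart is unknown. Of their 50-base stretches, 42.1% for Hspd1 and 22.8% for Hspe1 occur in other genes. The share of counts on mitochondrially encoded genes was 1.04% to 1.43% in add-back, 0.94% to 1.42% in knockdown and 1.16% to 1.25% in scramble libraries.

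The stretch before the Hspe1 start is shown because it holds 2 heat shock elements and lies within a promoter window of each gene of the pair. RefSeq (GRCm38.p6) gave promoter windows of 300 bases, 250 before and 50 after a start, for 7 of the 10 genes, 9 windows in all. There was none for Hsp90aa1, Hsp90ab1 and Hspa8, so these were not searched. A heat shock element was searched on both strands as 3 units in alternation, each GAA or TTC, with 2 bases of any kind between units. Such elements occur in 0.603% of 32851 windows of the same length. The Hspe1 window, chr1:55087898-55088147 on the plus strand up to the start, holds 2 overlapping elements that together span the 18 bases in capitals, the first beginning 89 bases before the start. A second Hspd1 window shares 285 bases with the whole Hspe1 window and holds the same elements. For Hsph1, 22 bases at chr5:149636287-149636308 on the minus strand hold 1 element, which begins 36 bases past one RefSeq start and 15 past the other. The windows of Hspb7, Hspb8, Hspb1 and Hspa1a held no match to this pattern of 3 units. Neither did the window of Hspa1b or the first Hspd1 window. A match describes letters in a window and does not show binding.
Hspe1: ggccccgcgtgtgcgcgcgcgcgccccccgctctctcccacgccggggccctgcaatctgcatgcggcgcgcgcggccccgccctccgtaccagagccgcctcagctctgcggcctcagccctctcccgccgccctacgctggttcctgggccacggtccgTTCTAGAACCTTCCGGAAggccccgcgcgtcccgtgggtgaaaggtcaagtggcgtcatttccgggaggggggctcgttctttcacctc
Hsph1: gctgcagaTTCTGGAAAGTTCt

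Hspd1 and Hspe1, the pair with 2 elements, did not pass in any comparison, and Hsph1, with 1 element, was lower in both hairpin groups than in scramble cells. Hsp90aa1, Hsp90ab1 and Hspa8, which had higher levels in both hairpin groups, had no window to search. How elements relate to the differences was therefore not tested. The genes of the heat shock factors were read beside these members. Hsf1 averaged 29.0 ± 1.80, 29.6 ± 0.76 and 29.6 ± 0.99 CPM in add-back, knockdown and scramble cells (SD, n = 3 each), with no difference that passed (edgeR adjusted p = 0.673 or above). Hsf2, a related factor, was lower than in scramble cells by -0.31 ± 0.05 with add-back (edgeR adjusted p = 0.000119) and by -0.26 ± 0.05 with knockdown alone (edgeR adjusted p = 0.000523). Hsbp1, a small protein that binds the trimer of heat shock factor 1, was higher than in scramble cells by 0.14 ± 0.05 with add-back (edgeR adjusted p = 0.0172) and by 0.13 ± 0.05 with the hairpin alone (edgeR adjusted p = 0.0272). The call in knockdown cells was lost with library totals and without scramble replicate 2, scramble replicate 3 or knockdown replicate 1 (adjusted p 0.00508 to 0.148). That in add-back cells was lost without scramble replicate 3, add-back replicate 1 or add-back replicate 2 (0.00275 to 0.0688).

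Hspb7 encodes a small heat shock protein known best from heart and skeletal muscle, where it binds filamin, and lies at chr4:141420779-141425311 on the plus strand. It had 554, 569 and 373 counts in the add-back libraries, 2021, 1877 and 1895 in the knockdown libraries and 1, 3 and 8 in the scramble libraries. In CPM these were 7.31, 8.04 and 5.33 in add-back cells, 25.2, 23.9 and 25.2 in knockdown cells and 0.02, 0.04 and 0.11 in scramble cells. The groups did not overlap, with scramble near 0, add-back between and knockdown highest. Add-back replicate 3 was the lowest of its group. The ratio of scaled counts was 450 for knockdown over scramble (95% interval 258 to 872) and 126 for add-back over scramble (71.6 to 243). For add-back over knockdown it was 0.279 (0.263 to 0.295). These intervals cover counting error only and leave out the spread between libraries. They are no test, since Hspb7 helped to choose the set. Without scramble replicate 3, which held 8 of the 12 scramble counts, the fitted log2 difference was 9.71 for knockdown and 7.86 for add-back against scramble, where all libraries gave 8.77 and 6.93. Hspb7 passed the count filter through the hairpin groups alone. In bulk RNA, fewer cells with a transcript and less of it per cell cannot be told apart.

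The 40 tested neighbours of Hspb7 had a median of -0.12 between knockdown and scramble cells (-0.20 with 10 on either side), with 7 called higher and 18 lower. Adjacent Zbtb17, a transcription factor gene, differed by -0.14 between knockdown and scramble cells (edgeR adjusted p = 0.00928). Over chromosome 4 the median was -0.09, with 18.9% of tested genes called higher and 36.7% lower. Markers of muscle and heart were read beside it. Of 11, 3 passed 1 CPM in a library, the list summed to 28.4 to 33.9 CPM in add-back, 33.3 to 40.4 in knockdown and 20.3 to 21.2 in scramble libraries, and the muscle regulators Myod1 and Myog were at 0 throughout. Tnnt2, cardiac troponin T, averaged 20.6 ± 2.76, 27.6 ± 4.16 and 8.82 ± 0.81 CPM in add-back, knockdown and scramble cells (SD, n = 3 each), the same order of groups as Hspb7, and Des averaged 8.06, 7.73 and 10.0 CPM. The part of such a programme in the Hspb7 values was not tested. Of the other marker lists, 4 macrophage genes summed to 3.44 to 3.99, 4.07 to 4.68 and 14.0 to 14.9 CPM in add-back, knockdown and scramble libraries, with Ptprc and Adgre1 near 0. Nearly all of that sum was Cd68 alone, which averaged 3.43, 4.20 and 14.5 CPM. Sums for 4 fibroblast genes were 52.9 to 56.4, 44.2 to 48.9 and 48.2 to 49.9 CPM, and the genes of that list went different ways. Pdgfrb averaged 10.7, 7.08 and 1.24 CPM in add-back, knockdown and scramble cells, higher by 2.52 ± 0.12 in knockdown than in scramble cells (edgeR adjusted p = 2.84e-11). Pdgfra averaged 42.7, 39.8 and 47.9 CPM and was lower by -0.27 ± 0.05 (edgeR adjusted p = 0.000102), and Dcn averaged 0.71, 0.06 and 0 CPM. Their part in the member values was not tested. Sums for 3 endothelial genes were 0.59 to 0.87, 0.20 to 0.40 and 4.26 to 5.00 CPM. Most of that was Cdh5 alone, which averaged 0.63, 0.23 and 4.36 CPM, with Pecam1 and Kdr near 0. The part of Cd68 and Cdh5 in the member values was not tested.

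The region before the Hspb7 start, chr4:141420529-141420778 on the plus strand (RefSeq, GRCm38.p6), is shown because Hspb7 had the widest difference among the members. It has no match to the heat shock element pattern of 3 units, to a facing pair of GAA and TTC units or to the kappa B motif. The pattern of 3 units allows no changed base within a unit. The window of Hspa1b, listed below among genes induced by heat shock factor 1, did not match it either. The kappa B motif was searched by its usual consensus on both strands and is present in 8.46% of windows, and facing pairs in 15.1%. Hspa1a, Hspa1b and the shared Hspe1 and Hspd1 windows each had 1 kappa B match. Facing pairs matched 1 time in each of the Hspb8, Hspa1a and Hspa1b windows and 2 times in the Hspb1 window. Each Hsph1 window and each of the shared Hspe1 and Hspd1 windows had 3 such matches. The sequence is 53.6% G and C, against 72.8% for the Hspe1 sequence above.
Hspb7: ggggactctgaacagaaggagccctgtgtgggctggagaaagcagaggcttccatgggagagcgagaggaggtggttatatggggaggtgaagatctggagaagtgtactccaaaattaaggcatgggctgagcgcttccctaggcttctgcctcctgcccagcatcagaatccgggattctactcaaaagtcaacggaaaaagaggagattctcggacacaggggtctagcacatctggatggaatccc

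Genes most like Hspb7 over the 9 libraries were Gm43549, Trp53i11 and Nudt14, with root mean square differences of 0.85, 0.87 and 1.02 on the log2 scale, far wider than for Hsp90ab1. Trp53i11, a p53-induced gene, averaged 13.2, 15 and 0.14 CPM in add-back, knockdown and scramble cells. Nudt14, a nucleotide sugar hydrolase, averaged 8.96, 9.26 and 0.08 CPM. Both resemble Hspb7 in being near 0 in scramble cells, but their add-back and knockdown means lie closer together than its 6.89 and 24.8 CPM.

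Hspb8 encodes HSP22, which works with the exchange factor BAG3 and HSP70 to send misfolded proteins to autophagy, and lies at chr5:116408491-116422864 on the minus strand. Hspb8 was at 53.3, 52.2 and 47.5 CPM in add-back cells, 59.7, 55.4 and 56.2 CPM in knockdown cells and 137, 136 and 133 CPM in scramble cells. Every hairpin library lay below every scramble library, and the add-back libraries lay below the knockdown libraries. Relative to scramble it was lower by -1.41 ± 0.05 in add-back cells (edgeR adjusted p = 3.65e-13) and by -1.24 ± 0.05 with the hairpin alone (edgeR adjusted p = 1.38e-12). In linear terms add-back cells had 0.377 times and knockdown cells 0.422 times the scramble level. The difference of -0.16 ± 0.05 between add-back and knockdown cells passed (edgeR adjusted p = 0.0363), but not in 9 of 17 alternatives, with an adjusted p from 0.00361 to 0.168. Those were library totals, a fit on the 2 groups only, and the removal of scramble replicate 1 or 2, any knockdown library, or add-back replicate 2 or 3. Its partner Bag3 averaged 50.2 ± 2.61, 54.1 ± 2.68 and 71.3 ± 3.33 CPM in add-back, knockdown and scramble cells (SD, n = 3 each) and was lower than scramble by -0.51 ± 0.05 in add-back cells (edgeR adjusted p = 3.41e-07) and by -0.40 ± 0.05 in knockdown cells (edgeR adjusted p = 4.67e-06). No 50-base stretch of Hspb8 occurs elsewhere, and its 40 tested neighbours had a median of -0.10 between knockdown and scramble cells, or -0.22 with 10 on either side. Of the adjacent tested genes, Srrm4, a splicing regulator, differed by -2.06 for add-back against scramble (edgeR adjusted p = 8.65e-11) and by -1.91 for knockdown against scramble (edgeR adjusted p = 1.56e-10), the same sign as Hspb8, and 4933424N20Rik by -2.79 (edgeR adjusted p = 0.0018) and -1.33 (edgeR adjusted p = 0.0514).

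Hspb1, the gene of HSP25, a widely expressed small heat shock protein, lies at chr5:135887919-135889563. It had 2 counts in knockdown replicate 1 and 0 in the other 8 libraries. At this depth 3 counts allow at most 0.0464 CPM in the shallowest library. Of its 50-base stretches, 50.1% occur in other genes, chiefly the pseudogene Hsp25-ps1, which also had 0 counts. How shared reads were counted is not given, and its part in this low level was not tested.

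**Figure D3:**
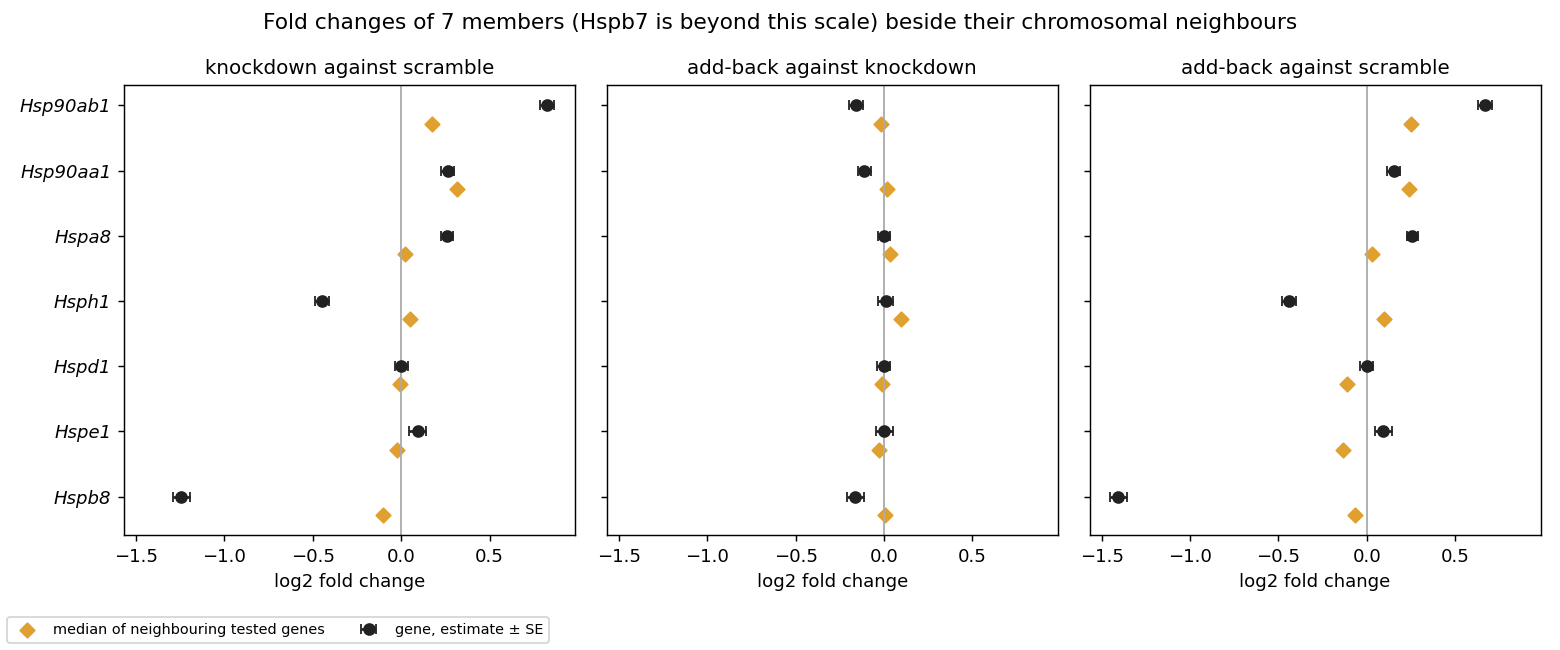
Log2 fold change of 7 members (points, ± SE) in 3 comparisons, with the median of up to 40 neighbouring tested genes as diamonds below each point. Hsp90ab1 at 0.83, Hspb8 at -1.24 and Hsph1 at -0.45 lie away from the medians of their neighbours in knockdown against scramble cells, while Hsp90aa1 at 0.26 lies beside its neighbours at 0.32.

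Other small heat shock proteins were read from a list of 6, of which Cryab, Hspb2 and Hspb6 had enough counts. All 3 were lower in add-back than in knockdown cells, where 4.82% of tested genes were lower, and the list's median was -0.45 against 0.00 over all tested genes. Cryab, alpha B crystallin, was at 28.5, 29.1 and 27.2 CPM in add-back, 38.5, 37.6 and 39.5 CPM in knockdown and 47.7, 47.8 and 46.6 CPM in scramble cells. Add-back cells had -0.45 ± 0.05 relative to knockdown cells (edgeR adjusted p = 4.69e-06), and the gene was lower by -0.30 ± 0.04 in knockdown than in scramble cells (edgeR adjusted p = 2.19e-05). Hspb6, HSP20, was at 19.0, 21.3 and 20.4 CPM in add-back, 27.5, 29.8 and 29.8 CPM in knockdown and 23.7, 25.4 and 26.6 CPM in scramble cells. It was lower by -0.52 ± 0.06 in add-back than in knockdown cells (edgeR adjusted p = 2.4e-05). Its rise of 0.20 ± 0.06 in knockdown over scramble cells (edgeR adjusted p = 0.0093) was lost without scramble replicate 1 (0.0535). Hspb2, a muscle-type member, was at 3.16 ± 0.25, 4.29 ± 0.33 and 3.29 ± 0.37 CPM in add-back, knockdown and scramble cells (SD, n = 3 each). Its difference of -0.44 ± 0.12 between add-back and knockdown cells (edgeR adjusted p = 0.0247) was lost in 4 of 17 alternatives, the removal of knockdown replicate 1 or 3 or add-back replicate 2 or 3 (adjusted p 0.00744 to 0.0885). Its rise of 0.39 ± 0.12 in knockdown over scramble cells (edgeR adjusted p = 0.00976) was lost without scramble replicate 2 (0.0545). Hspb2 and Cryab are neighbours, and whether they overlap or share reads was not tested. Between the same 2 groups Hspb8 differed by -0.16 and Hspb7 by -1.84.

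Of 18 HSP90 co-chaperones, 5 were higher and 9 lower in knockdown than in scramble cells, where 27.7% of all tested genes were higher and 29.9% lower, with a list median of -0.13 against 0.00 over all tested genes. With library totals the split was 3 higher and 10 lower. Sugt1, an adaptor between HSP90 and other complexes, averaged 81.4 ± 1.25, 87.0 ± 1.63 and 42.8 ± 0.27 CPM in add-back, knockdown and scramble cells (SD, n = 3 each) and was higher by 1.02 ± 0.04 in knockdown than in scramble cells (edgeR adjusted p = 1.02e-12). Fkbp5, an immunophilin of steroid receptor complexes, was higher by 0.87 ± 0.04 (edgeR adjusted p = 2.04e-11). Ahsa1, which speeds the ATPase of HSP90, was lower by -0.39 ± 0.04 (edgeR adjusted p = 7.08e-08). In add-back cells 4 were higher and 9 lower than scramble, among them Ppid, a cyclophilin, by -0.56 ± 0.05 (edgeR adjusted p = 4.7e-08). Between add-back and knockdown cells edgeR and DESeq2 each called 0 of 18 co-chaperones and 0 of 15 tested clients, with 2 and 3 genes at an unadjusted p under 0.05 by either tool. The replicate block called 2 co-chaperones lower and 1 client higher, and library totals called 1 client higher. Of 15 tested HSP90 clients, 6 were higher and 3 lower in knockdown cells, and 7 were higher and 4 lower in add-back cells, both against scramble, where 57.5% and 55.8% of all tested genes were called. Over the alternatives 3 to 5 clients were lower in knockdown cells and 2 to 4 in add-back cells. The kinase Src averaged 59.6, 61.8 and 128 CPM in add-back, knockdown and scramble cells, lower by -1.05 ± 0.04 in knockdown cells (edgeR adjusted p = 5.34e-12). Ikbkg, the regulatory subunit of the IkB kinase, averaged 101, 94.5 and 61.2 CPM and was higher by 0.63 ± 0.04 (edgeR adjusted p = 3.14e-09), and the glucocorticoid receptor gene Nr3c1 by 0.52 ± 0.04 (edgeR adjusted p = 7.97e-09). Akt1, a growth kinase, was higher by 0.52 ± 0.04 in add-back than in scramble cells (edgeR adjusted p = 5.04e-09).

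Of 7 tested HSP70 and HSP110 genes outside the members, 4 were higher and 2 lower in both hairpin groups than in scramble cells, where 57.5% of all tested genes were called in knockdown and 55.8% in add-back cells. Hspa12a, a distant HSP70 relative, averaged 1.60 ± 0.30, 1.80 ± 0.20 and 54.8 ± 1.89 CPM in add-back, knockdown and scramble cells (SD, n = 3 each), lower by -4.93 ± 0.10 in knockdown cells (edgeR adjusted p = 4.28e-16). Hspa2, a form prominent in testis, was higher by 0.54 ± 0.09 (edgeR adjusted p = 6.39e-05). Hspa4l, an HSP110, averaged 193, 194 and 166 CPM, higher by 0.22 ± 0.04 in add-back than in scramble cells (edgeR adjusted p = 0.000255), where its paralog Hsph1 was lower. Among 20 J proteins and exchange factors, 8 were higher and 6 lower in knockdown than in scramble cells, and 6 were higher and 7 lower in add-back cells. Over all tested genes the shares were 27.7% higher and 29.9% lower in knockdown cells, and 27% and 28.7% in add-back cells. Stub1, a ubiquitin ligase that binds HSP70, was higher in knockdown cells by 0.44 ± 0.03 (edgeR adjusted p = 6.96e-09), Bag6, a triage factor, by 0.40 ± 0.03 (edgeR adjusted p = 5.41e-08) and Bag5, an exchange factor, by 0.54 ± 0.06 (edgeR adjusted p = 1.22e-06). Between add-back and knockdown cells 3 of the 20 passed, where 10.4% of all tested genes did, and the replicate block called 6. The 3 were lower and belong to the J protein class B. Dnajb1, the main partner of HSP70 in disaggregation, averaged 57.5 ± 2.55, 67.4 ± 1.42 and 55.0 ± 2.85 CPM in add-back, knockdown and scramble cells (SD, n = 3 each), lower by -0.23 ± 0.05 (edgeR adjusted p = 0.00411). Dnajb4 was lower by -0.30 ± 0.05 (edgeR adjusted p = 0.00123) and Dnajb2 by -0.35 ± 0.07 (edgeR adjusted p = 0.00511).

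Of the 15 genes of the cytosolic chaperonin TRiC and its helper prefoldin, 7 were higher and 1 lower in knockdown than in scramble cells, and 6 were higher and 2 lower in add-back cells, where 27.7% of all tested genes were higher and 29.9% lower in knockdown cells and 27% and 28.7% in add-back cells. Over the alternatives 1 to 2 were lower in knockdown and 1 to 3 in add-back cells. Pfdn6 was higher by 0.81 ± 0.05 in knockdown than in scramble cells (edgeR adjusted p = 3.82e-10) and Tcp1, a TRiC subunit, by 0.63 ± 0.04 (edgeR adjusted p = 6.32e-10), while the subunit gene Cct2 was lower by -0.52 ± 0.04 (edgeR adjusted p = 3.3e-09). In add-back against knockdown cells Pfdn6 (-0.25 ± 0.05), Tcp1 (-0.17 ± 0.04) and Cct5 (-0.15 ± 0.03) were lower, with edgeR adjusted p of 0.00215, 0.00885 and 0.00955. That is 3 of 15 lower, where 4.82% of all tested genes were, and the replicate block called 6. The Cct5 call was lost without knockdown replicate 2 or add-back replicate 3 (adjusted p 7.03e-05 to 0.0629). Of 13 mitochondrial chaperones and proteases other than the members, 7 were higher and 2 lower in knockdown and 6 higher and 3 lower in add-back cells, against scramble, with 1 to 3 lower in knockdown cells over the alternatives. Hspa9, the mitochondrial HSP70, was at 1728, 1876 and 1763 CPM in add-back, 2095, 2091 and 2127 CPM in knockdown and 1351, 1345 and 1423 CPM in scramble cells. It was higher by 0.62 ± 0.04 in knockdown than in scramble cells (edgeR adjusted p = 8.55e-10) and lower by -0.23 ± 0.04 in add-back than in knockdown cells (edgeR adjusted p = 0.00067), unlike its chaperonin partners Hspd1 and Hspe1. The matrix protease Lonp1 was higher by 0.55 ± 0.04 in knockdown than in scramble cells (edgeR adjusted p = 7.15e-09) and lower by -0.21 ± 0.04 in add-back than in knockdown cells (edgeR adjusted p = 0.00256). Htra2, a protease of the intermembrane space, was lower by -0.53 ± 0.04 in knockdown than in scramble cells (edgeR adjusted p = 5.61e-09).

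Of 14 chaperones of the endoplasmic reticulum, 7 were higher and 2 lower in knockdown than in scramble cells, and 10 were higher and 1 lower in add-back cells. Over all tested genes 27.7% were higher and 29.9% lower in knockdown cells, and 27% and 28.7% in add-back cells. Library totals left 5 higher and 2 lower in knockdown cells. Pdia6, a disulfide isomerase, averaged 552 ± 14.4, 538 ± 9.65 and 318 ± 7.45 CPM in add-back, knockdown and scramble cells (SD, n = 3 each), higher by 0.76 ± 0.04 in knockdown cells (edgeR adjusted p = 2.43e-11). Its relatives Pdia3 and Pdia4 were higher by 0.45 ± 0.03 and 0.44 ± 0.04 (edgeR adjusted p = 5.34e-09 and 5.11e-08). Calr, the lectin chaperone calreticulin, alone passed between add-back and knockdown cells, higher by 0.15 ± 0.05 (edgeR adjusted p = 0.0444). That call was lost in 7 of 17 alternatives (adjusted p 0.00113 to 0.164), the fit on the 2 groups only and the removal of scramble replicate 1 or 2, knockdown replicate 1 or 3, or add-back replicate 2 or 3. With library totals 4 genes of this list were higher in add-back than in knockdown cells, and with the replicate block 5.

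Of 16 genes induced by heat shock factor 1, 8 were higher and 5 lower in knockdown than in scramble cells, and 5 were higher and 6 lower in add-back cells, where 57.5% and 55.8% of all tested genes were called. In add-back against knockdown cells 5 were lower and 0 higher, or 7 and 0 with the replicate block, where 4.82% of all tested genes were lower and 5.61% higher, with a list median of -0.07. The 5 were Cryab, Dnajb4, Dnajb1, Tcp1 and Hspa1b. This list is not separate from those above, with 12 of its 16 genes on another of the 10 lists. Serpinh1, the collagen chaperone, averaged 0.32, 0.29 and 0.01 CPM in add-back, knockdown and scramble cells. Over the 112 tested genes of all lists, 49 were higher and 27 lower in knockdown than in scramble cells, and 46 higher and 32 lower in add-back cells. Between add-back and knockdown cells 1 was higher and 12 lower, and 10.4% of all tested genes were called. The last split moved to 6 higher and 23 lower with the replicate block and to 5 higher and 11 lower with library totals.

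Chromosome 17 held 8 of these 112 list genes, namely Bag6, Clpp, Fkbp5, Hspa1b, Lonp1, Pfdn6, Stub1 and Tcp1. All 8 were higher in both hairpin groups than in scramble cells, where 58.0% of the chromosome's tested genes were higher in knockdown cells and 55.4% in add-back cells. Their median was 0.59 between knockdown and scramble cells, against 0.31 over the chromosome. The 104 list genes elsewhere had 41 higher and 27 lower in knockdown than in scramble cells, with a median of 0.03. Over all tested genes 27.7% were higher and 29.9% lower in that comparison. The part of the chromosome in these calls was not tested, and the grouping was made after the values were seen.

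**Figure D4:**
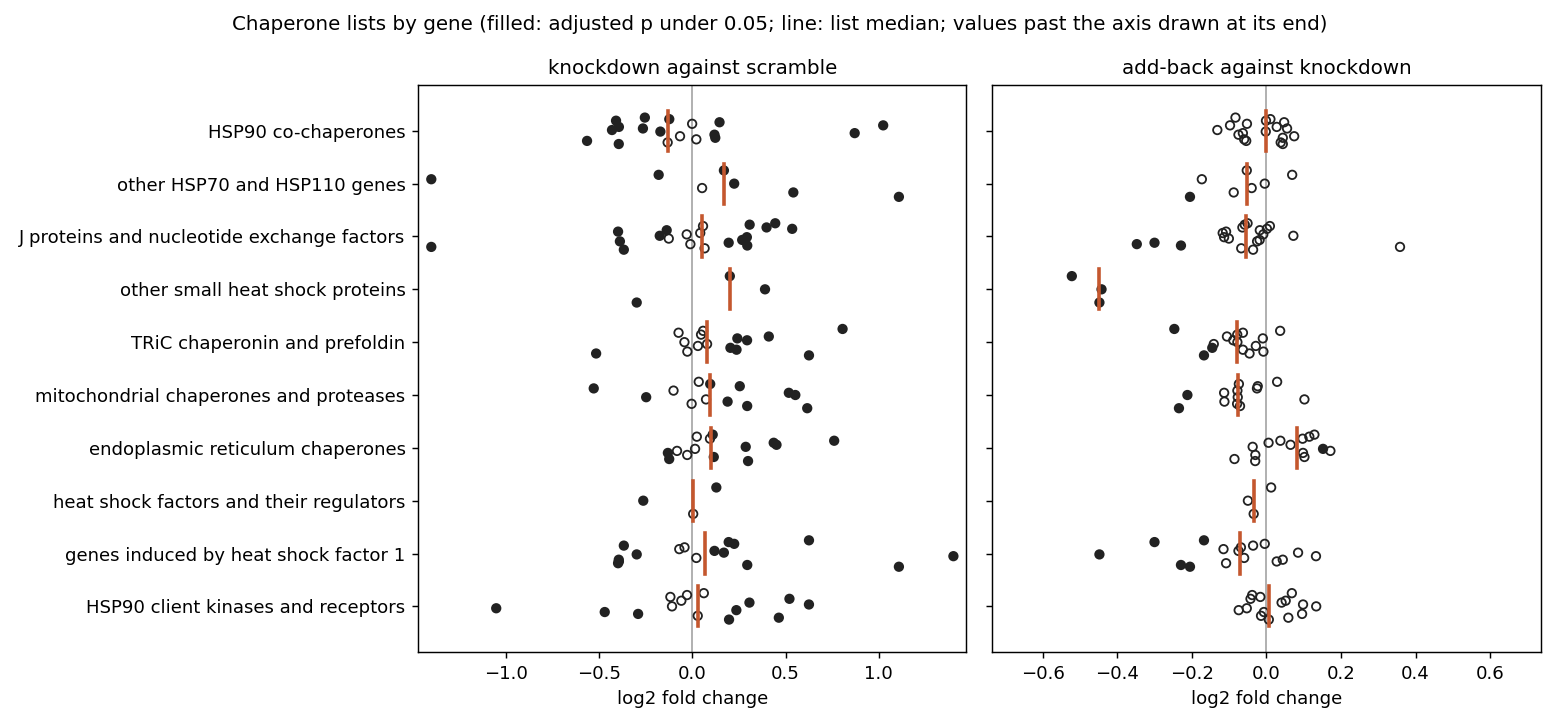
Log2 fold change of each tested gene of 10 chaperone and client lists for knockdown against scramble (left) and add-back against knockdown (right), filled where the adjusted p was under 0.05, with the list median as a vertical line. Hspa12a, Dnaja4 and Serpinh1 lie past the left panel's range and are drawn at its end. The 3 other small heat shock proteins lie near -0.45 in the right panel, where most list medians are close to 0.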

How the data were processed

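RNA was taken with a column kit and made into mRNA-seq libraries, per the labels' protocols. The authors deposited raw counts, 1 whole number for each symbol in each library, not normalized. FastQC, MultiQC, STAR and mm10 are named in the submitters' processing notes. No source used here gives the counting tool, its annotation or its strand setting. Columns were matched to samples by group and replicate number. Genes were kept with filterByExpr (minimum count 10, minimum total 15) and scaled by TMM. The test was edgeR's robust quasi-likelihood F test (edgeR 4.0.16, R 4.3.3), fitted to the 9 libraries by group alone, with 6 residual degrees of freedom and a common biological coefficient of variation of 5.26%. Benjamini-Hochberg adjustment ran over 16766 genes and the threshold was 0.05. SEs were taken as the log2 difference over the square root of F. Replicates differed by more than sampling noise (chi-square per degree of freedom 8.55 to 14.3), so none was taken as a repeat.

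The members and the gene lists were chosen with earlier results of these data known. From each list, up to 3 genes per comparison with the smallest adjusted p and a mean log2 CPM of at least 1 were named. Dnaja4 and Serpinh1, and Bag3, Hspa4l and Hsf1 beside the members, were named after their values were seen. Positions came from GENCODE on GRCm38/mm10, with 1 position for 96.9% of tested genes. The fit was run on simulated counts in which few genes changed, unlike in the data. That run does not show how the scaling and calls hold with so many genes shifted. Alternatives were library totals, relative log expression, no filter, a filter of 1 CPM, DESeq2 1.42.0, limma voom (limma 3.58.1), a replicate block, a fit on 2 groups and each library left out, 17 in all. For the lists they were added after the data were seen.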

Additional observations from a re-analysis of the deposited data

How the results depend on the processing

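The tested members were called 4 times between knockdown and scramble cells and 4 times between add-back and scramble cells in the fit reported, and 4 or 5 times under all 17 alternatives. Between add-back and knockdown cells, where 1 was called, 0 were called with library totals and with a fit on the 2 groups only, 2 without the filter, with DESeq2, with limma voom and with the replicate block, and 0 to 1 with a library left out. Over all genes, the replicate block gave 2678 calls between add-back and knockdown cells against 1749, 10232 between knockdown and scramble and 9997 between add-back and scramble. Equal replicate numbers were not taken to pair the libraries, since 1 of 9 equal-number pairs had a correlation over 0.1 (-0.0111 to 0.123). Of 18 pairs with different numbers, 0 did (-0.0814 to 0.0464). When each library was set against the libraries of another group, the equal number correlated best in 12 of 18 cases, a hint of pairing from the data that the labels do not give. Library totals moved the share of higher calls between add-back and knockdown cells to 65.9%, against 53.8%.

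The sign changed only for values near 0 that were never called. For knockdown against scramble, Hspd1 gave -0.0472 with library totals, -0.000135 with the 1 CPM filter and -0.0103 to 0.0232 with a library left out. For add-back against knockdown, Hspa8 gave 0.0257 with library totals, 0.00473 with the 1 CPM filter, 0.00159 with 2 groups and -0.0137 to 0.0206 with a library left out, and Hspd1 gave 0.0259, 0.00497, 0.00183 and -0.0204 to 0.0318 under the same settings. Hspe1 gave -0.00147 with relative log expression and with DESeq2, -0.00434 without the filter and -0.0434 to 0.036 with a library left out, and Hsph1 -0.0117 to 0.0479 with a library left out. For add-back against scramble, Hspd1 gave 0.00483 with the 1 CPM filter, 0.00675 with 2 groups and -0.0156 to 0.0373 with a library left out. The log2 difference of Hspb7 ran from 8.40 to 9.71 between knockdown and scramble cells and from 6.56 to 7.86 between add-back and scramble cells and rests on 12 scramble counts. Of 306 values of tested members under alternatives, 253 kept sign and side of the threshold. Of 102 values of Hsp90ab1 and Hspb7, which had no test, 94 moved by less than the spread between replicates of the comparison's first-named group. The other 8 moved by more, with 0 changes of sign. The spread of the scramble replicates was not used.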
